A study of Mus musculus with 14 samples.

Results

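Genes whose symbol starts with Kcn encode the pore-forming and auxiliary subunits of potassium channels. They were taken from the array by mapping each probe's RefSeq transcript to a gene symbol, which gave 97 Kcn genes among 20887 named genes, and the brightest probe stood for a gene with several. Of the 97 genes, 72 entered the tests because in 1 group or more their probe exceeded background in every mouse, out of 14437 genes tested, and 63 of the 72 were well above background on all 14 arrays. Of the symbols, 3 belong to non-coding RNAs named after a channel gene (Kcnq1ot1, Kcnd3os and Kcnmb4os1), of which the first and second were tested.

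Repeated social defeat stress puts a mouse with an aggressor in session after session, and the defeated mice are then classed by behaviour. RNA came from punches (1.5 mm) of the medial prefrontal cortex (mPFC), a frontal region with a part in emotional and social behaviour, and the mice were perfused 4 h after their final session. The labels give 6 susceptible and 3 resilient mice, all defeated, and 5 naive mice that underwent cage transfer instead. All 14 animals were wild-type C57BL/6 mice, each with its own 1-colour array, and the labels give neither age nor sex. The labels mention independent experiments but not which mouse belonged to which.

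Potassium channels let potassium ions leave or enter a cell down their gradient and so set the resting potential, shape the action potential and limit repetitive firing. Voltage-gated (Kv) subunits open on depolarisation, calcium- and sodium-activated subunits follow ion entry, inward rectifiers (Kir) hold the membrane near rest and in astrocytes take up potassium released by neurons, and two-pore-domain (K2P) subunits carry leak current. Auxiliary subunits change the gating or surface delivery of these pores.

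Levels below are log2 of the scanner's processed signal minus the array's 75th percentile, so a level of 0 is as bright as that percentile, and levels of different probes are not set against each other. Differences are log2 values with the standard error (SE) of a limma fit over all genes tested, and a gene was called where the p-value adjusted over all of them was under 0.05. Between 48.0% and 65.4% of the spots of an array were well above background, and precision rests on how many arrays there were. Of 3 slides, slides 1 and 2 carried susceptible, resilient and naive mice, and slide 3 carried 2 susceptible and 2 naive mice and had a scan day of its own. On slide 1 the only naive mouse was naive mouse 1, so differences from naive mice within slide 1 rest on that mouse. Naive arrays all occupied row 1 and defeated arrays row 2, so the row of the slide and defeat itself cannot be told apart. All 6 general neuronal, all 5 excitatory cortical and all 6 striatal neuron markers passed the filter, so detection alone does not tell the punched region from its neighbours. The mean level of the striatal markers ran from 0.19 to 0.33 in susceptible, 0.14 to 0.32 in resilient and 0.02 to 0.39 in naive mice. Of these, the adenosine receptor gene Adora2a was called lower in susceptible mice (-0.45 ± 0.08, adjusted p = 0.0175, limma). Several marker lists moved with the groups. In susceptible against naive mice the median difference was 1.59 for 5 erythroid, 0.21 for 6 general neuronal and 0.13 for 6 striatal markers. It was -0.17 for the 5 excitatory cortical, -0.31 for 8 astrocyte, -0.43 for 6 oligodendrocyte and -0.59 for 6 endothelial markers. For 7 pericyte and smooth muscle markers it was -0.84, and for 6 meningeal markers -1.06. The excitatory cortical markers had a median of -0.38 in resilient mice, and 3 of the 5 lay below 0 in each defeated group. The mean level of the erythroid markers ran from -0.84 to 2.34 in susceptible, -1.05 to 1.62 in resilient and -1.81 to 0.02 in naive mice, and 0 of the 5 passed. The part of these lists in the Kcn values was not tested.

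In susceptible mice 3 of the 72 Kcn genes differed from naive mice: Kcna3 was higher, and Kcnj10 and Kcne1l were lower (limma, adjusted p under 0.05). That is 4.17% of the Kcn genes tested, beside 2.6% of all genes tested, and nothing particular to the Kcn genes can be read from a count of 3. In the 2 directions, 1 Kcn gene was called higher (1.64% of all genes) and 2 were called lower (0.963% of all genes). At an unadjusted p under 0.05 there were 19 Kcn genes, 26.4% of those tested, beside 24% of all genes. Of these, 13 were higher (18.1%, beside 13.1% of all genes) and 6 lower (8.33%, beside 10.9%). The difference was above 0 for 45 of the 72 (62.5%, against 53.2% of all genes), and its median was 0.09, against 0.02 over all genes tested. The count depends on the genes, mice and terms of the fit, in both directions. With slide as a block 18 Kcn genes passed, beside 15.3% of all genes, and the adjusted p of that fit is given below for each of them that is named. When dim probes were kept in, 0 of 97 Kcn genes passed, beside 0.168% of all genes, and 21 had an unadjusted p under 0.05, beside 17% of all genes. When only the susceptible and naive mice were fitted 0 Kcn genes passed, beside 0.457% of all genes, and 18 had an unadjusted p under 0.05, beside 21.7% of all genes. In resilient mice 0 of the 72 Kcn genes passed against the same naive mice, beside 0.152% of all genes (0.09% higher and 0.0623% lower), and 16 had an unadjusted p under 0.05 (22.2%, against 20.3% of all genes). Of these, 10 were higher (13.9%, beside 10.7% of all genes) and 6 lower (8.33%, beside 9.62%). The difference was above 0 for 48 of the 72 in resilient mice (66.7%, against 53.1% of all genes), with a median of 0.14, against 0.02 over all genes tested. Between susceptible and resilient mice 0 Kcn genes passed, beside 0% of all genes, and 0 had an unadjusted p under 0.05, beside 0.748% of all genes.

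**Figure D1:**
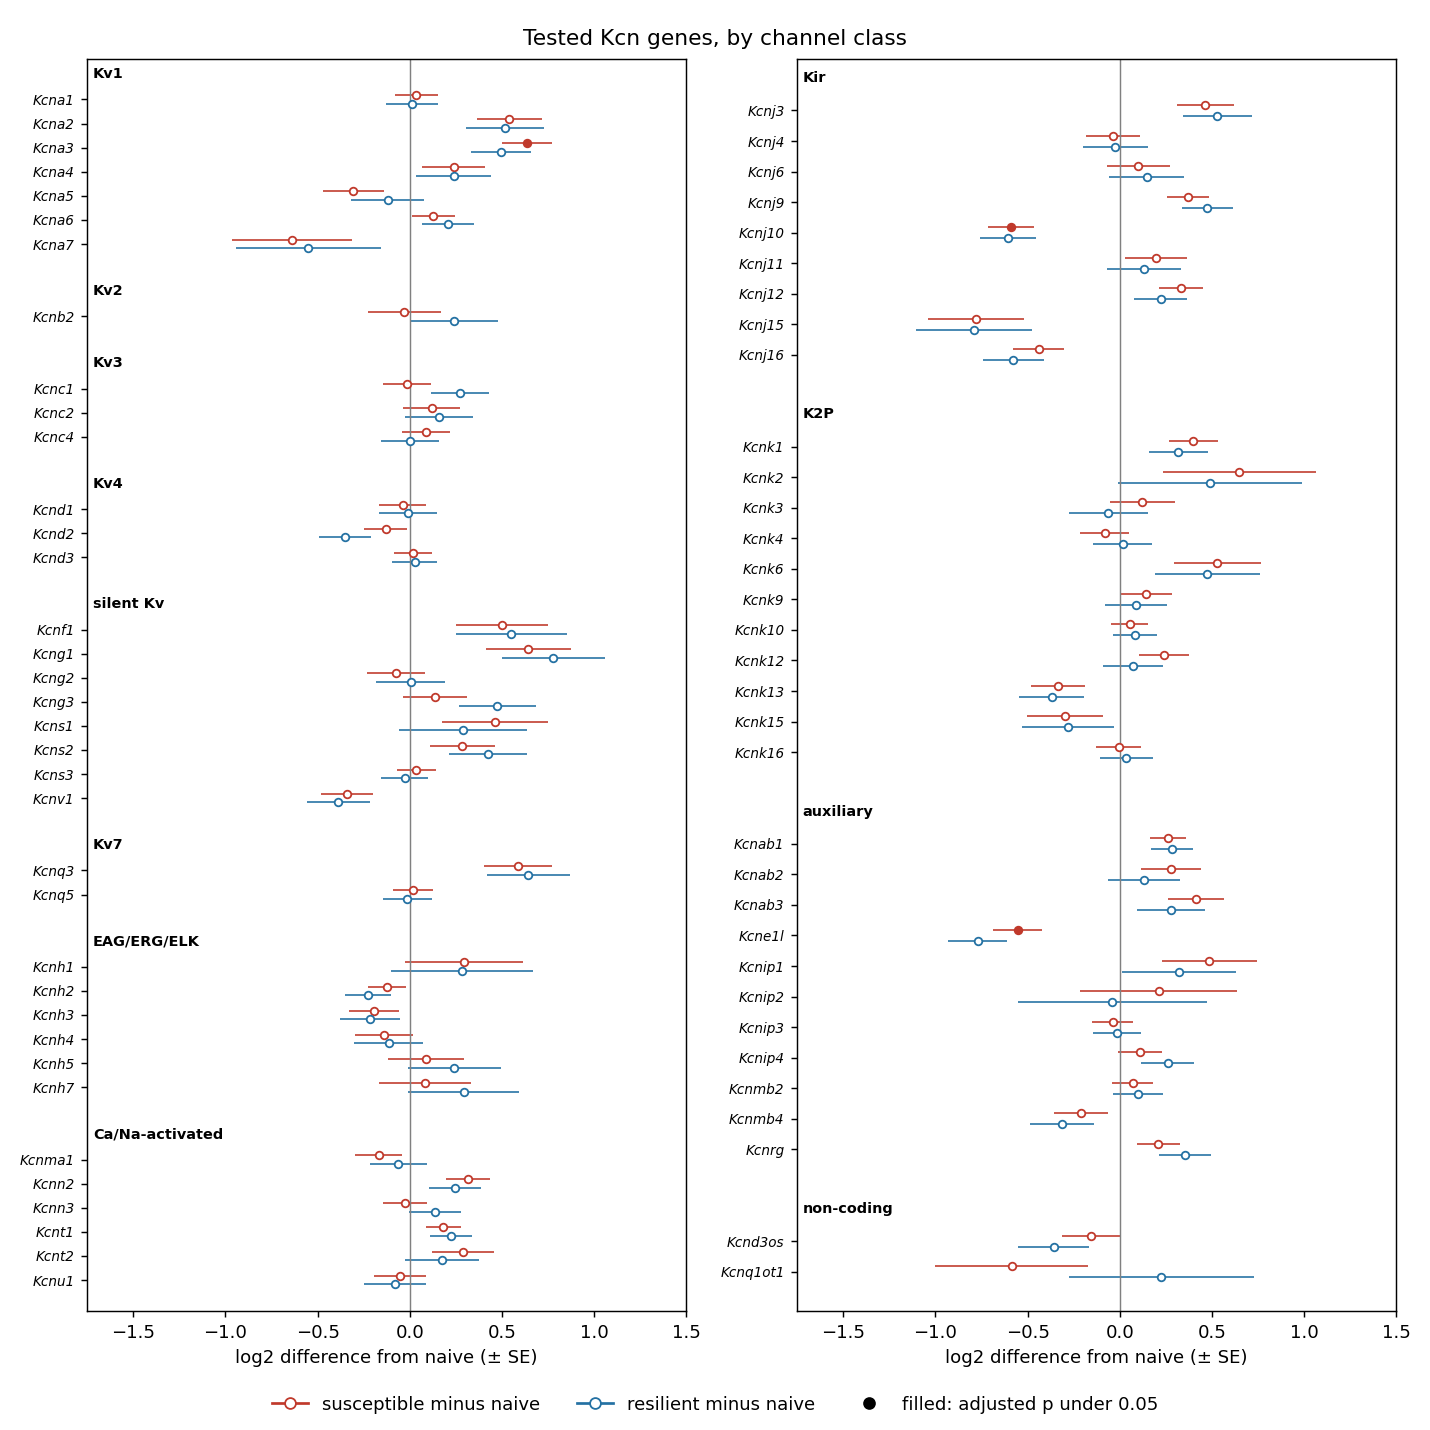
By channel class, 69 of the 72 tested Kcn genes, with the log2 difference from naive mice (horizontal axis, bars ± SE) in susceptible mice (red) and resilient mice (blue); both are set against the same 5 naive mice. The 3 filled points are the genes that passed in susceptible mice in the fit without slide, Kcna3 at 0.64, Kcnj10 at -0.59 and Kcne1l at -0.55.

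The promoters of the 3 genes that passed are shown because they are the members whose level differed, and that of Kcnj9 because Kcnj9 and Kcnj10 are direct neighbours on chromosome 1, on opposite strands, and their differences had opposite signs. Each sequence is the 250 bases before the transcript start in RefSeq (GRCm38.p6), read 5′ to 3′ on the gene's strand. They lie at chr3:107035912-107036161 (plus strand) for Kcna3, chr1:172340960-172341209 (plus strand) for Kcnj10, chr1:172329323-172329572 (minus strand) for Kcnj9 and chrX:142306199-142306448 (minus strand) for Kcne1l. Capitals mark matches, on either strand, to a GC box (GGGCGG), the glucocorticoid receptor monomer motif (AGAACA) or a TATA box (TATAAA).
Kcna3: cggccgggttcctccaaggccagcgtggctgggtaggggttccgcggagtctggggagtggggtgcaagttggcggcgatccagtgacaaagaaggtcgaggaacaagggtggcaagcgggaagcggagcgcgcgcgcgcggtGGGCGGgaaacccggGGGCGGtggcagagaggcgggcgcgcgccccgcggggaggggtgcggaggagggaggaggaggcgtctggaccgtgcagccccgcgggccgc
Kcnj10: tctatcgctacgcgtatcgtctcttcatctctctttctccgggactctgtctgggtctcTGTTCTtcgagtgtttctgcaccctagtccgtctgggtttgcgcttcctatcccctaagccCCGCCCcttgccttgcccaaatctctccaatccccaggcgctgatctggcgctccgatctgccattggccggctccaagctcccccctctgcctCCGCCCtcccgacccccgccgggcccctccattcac
Kcnj9: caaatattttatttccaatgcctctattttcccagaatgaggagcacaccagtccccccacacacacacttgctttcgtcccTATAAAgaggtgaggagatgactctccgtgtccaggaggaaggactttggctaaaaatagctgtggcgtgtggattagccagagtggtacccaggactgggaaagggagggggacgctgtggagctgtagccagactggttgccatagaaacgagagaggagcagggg
Kcne1l: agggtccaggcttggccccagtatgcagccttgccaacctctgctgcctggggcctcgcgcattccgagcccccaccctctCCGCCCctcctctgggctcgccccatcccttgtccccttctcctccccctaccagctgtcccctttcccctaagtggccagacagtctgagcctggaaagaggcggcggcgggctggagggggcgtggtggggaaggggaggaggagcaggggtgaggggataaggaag

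The promoter of Kcna3 held 2 GC boxes in 74.4% G and C, that of Kcnj10 held 2 GC boxes and 1 glucocorticoid receptor monomer motif in 62.0%, that of Kcne1l held 1 GC box in 68.0%, and that of Kcnj9 held 1 TATA box and 0 GC boxes in 52.0%. Of the tested Kcn genes, 52 had a promoter in the table, 74 promoters in all. The GC box was in 43.2% of these 74 and in 32.7% of all 32851 mouse promoters, the monomer motif in 13.5% and 16.1%, and the TATA box in 2.70% and 12.4%. An E-box (CACGTG) was in 4.05% of the Kcn promoters and 6.02% of all, a cAMP response element (TGACGTCA) in 0 of the 74 and 1.55% of all, and the full palindromic glucocorticoid response element, which overlaps the monomer motif, in 0 of the 74 and 3 of all. Median G and C content was 58.8% in the Kcn promoters and 52.4% in all promoters. These are matches of letters within this window and say nothing about binding.

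Kv1 subunits form low-threshold channels of axons and nerve terminals that keep a neuron from firing too readily. Kcna3 encodes Kv1.3, which is also found in lymphocytes and microglia. Its level ran from -1.56 to -1.06 with a median of -1.24 in the 6 susceptible mice. It was -1.48, -1.15 and -1.60 in the 3 resilient mice and -1.85, -1.84, -2.32, -1.87 and -1.65 in the 5 naive mice. All defeated mice lay above all naive mice. The difference was 0.64 ± 0.13 in susceptible mice, a 1.55-fold higher signal (adjusted p = 0.0328, or 0.0157 with slide as a block), and 0.49 ± 0.16 in resilient mice (adjusted p = 0.126). Within slides 1, 2 and 3 the susceptible mice exceeded the naive by 0.61, 1.01 and 0.26. Leaving out naive mouse 2, 3 or 4 ended the call of Kcna3 (adjusted p = 0.0676, 0.0681 and 0.0519), as did leaving out susceptible mouse 1, 2, 3 or 4 (0.0683, 0.0724, 0.0594 and 0.0682), while the difference ranged from 0.53 to 0.70. The 5 microglial markers had a median difference of -0.04 in susceptible mice, with mean levels of 2.67 to 3.16, against 2.50 to 3.20 in naive mice. Of 5 markers of blood leukocytes, 3 were tested (S100a8, S100a9 and Camp), and S100a8 and S100a9 were called higher in susceptible mice. The mean level of the 3 tested markers ran from -2.12 to 0.44 in susceptible mice, against -3.86 to -2.76 in naive mice. Their part in the Kcna3 result was not tested.

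Of the other 6 tested Kv1 genes none passed in the fit without slide, and Kcna2, Kcna5 and Kcna7 passed with slide as a block. Kcna2, which encodes the Kv1.2 subunit of axons, ran from -0.37 to -0.06 (median -0.14) in susceptible mice, was -0.32, -0.09 and -0.21 in resilient mice, and was -0.34, -0.90, -1.50, -0.52 and -0.36 in naive mice. The resilient and naive mice did not overlap, whereas 1 susceptible mouse lay below 2 of the naive mice. The differences of Kcna2 were 0.54 ± 0.18 in susceptible (adjusted p = 0.0940, or 0.0499 with slide as a block) and 0.52 ± 0.21 in resilient mice (adjusted p = 0.190). Kcna6, whose probe was the brightest of the Kv1 genes, ran from 4.82 to 5.45 (median 5.13) in susceptible mice, was 5.16, 5.41 and 5.08 in resilient mice and 4.91, 4.98, 4.85, 5.23 and 5.08 in naive mice. The 3 groups overlapped. Its difference was 0.13 ± 0.12 in susceptible and 0.21 ± 0.14 in resilient mice. Kcna1 (0.04 ± 0.12 in susceptible, 0.01 ± 0.14 in resilient mice) and Kcna4 (0.24 ± 0.17 and 0.24 ± 0.20 in the same order) encode the neuronal subunits Kv1.1 and Kv1.4. Kcna5 differed by -0.31 ± 0.17 in susceptible mice (adjusted p = 0.270), and with slide as a block by -0.35 ± 0.09 (adjusted p = 0.0277). Kcna7 differed by -0.64 ± 0.33 in susceptible mice (adjusted p = 0.247), and with slide as a block by -0.73 ± 0.15 (adjusted p = 0.0136). In resilient mice Kcna7 differed by -0.55 ± 0.39 (adjusted p = 0.454), and with the block by -1.05 ± 0.20 (adjusted p = 0.0292).

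**Figure D2:**
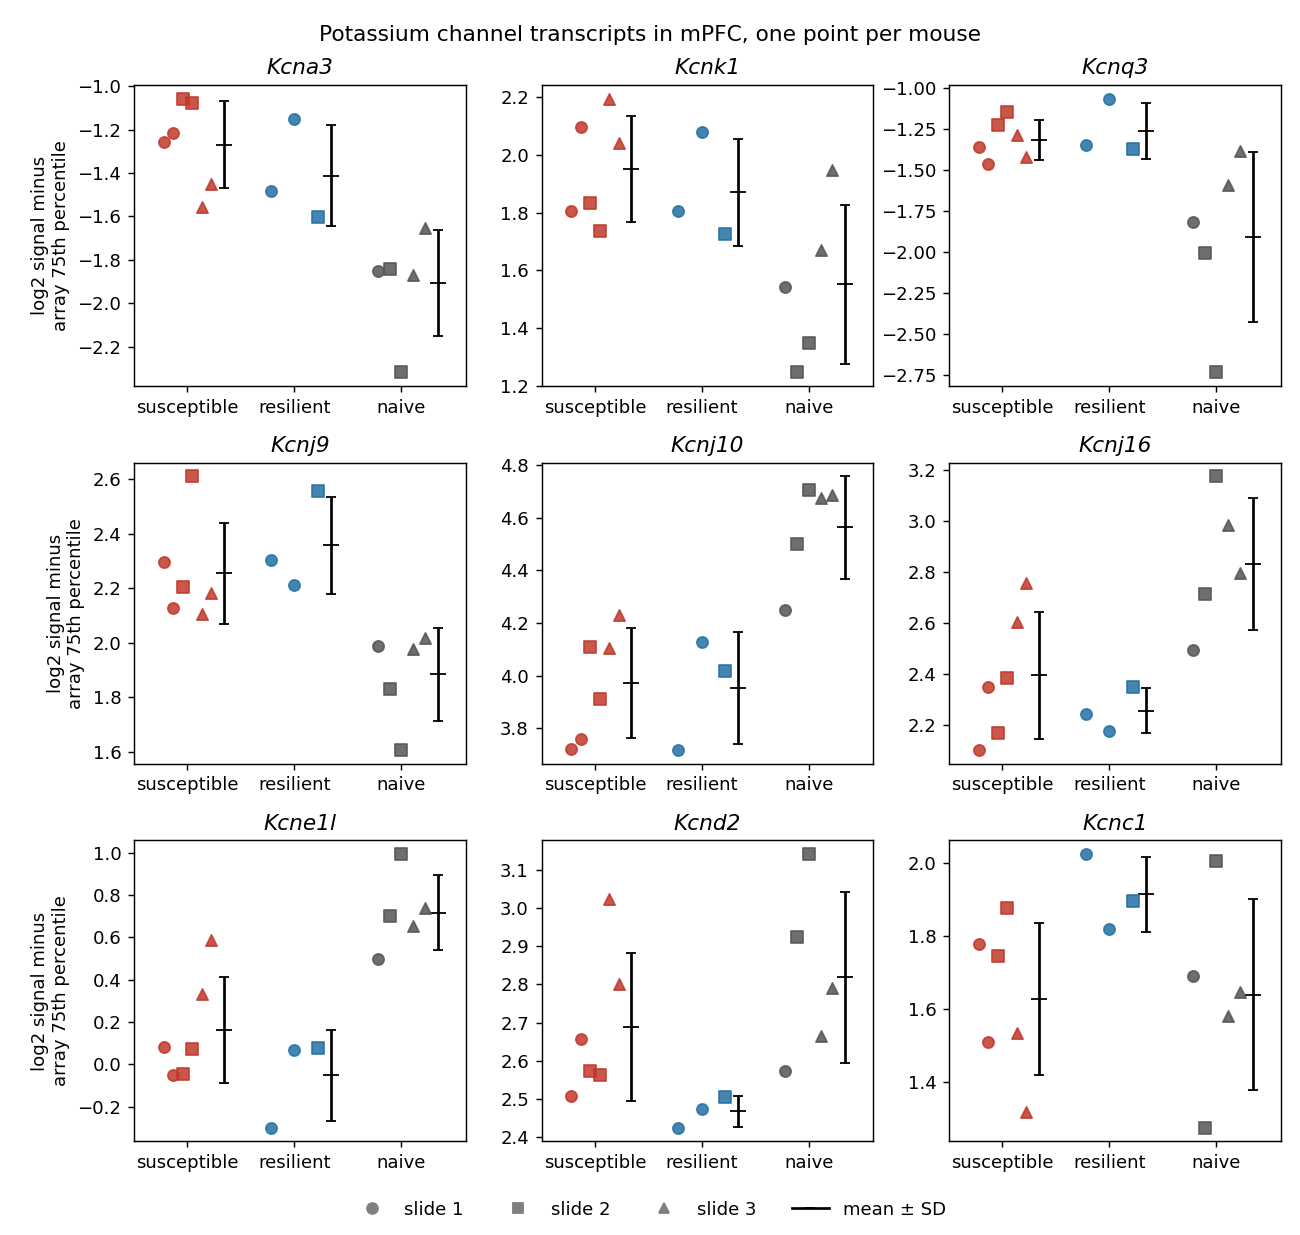
Levels of 9 Kcn genes by group, 1 point per mouse, with the slide as the marker shape and black bars for the mean ± SD; the vertical axis is log2 signal minus the array's 75th percentile. Susceptible mice averaged 3.97 for Kcnj10 and -1.27 for Kcna3, against 4.56 and -1.91 in naive mice, with no overlap, while Kcnc1 overlapped between the groups.

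Kv2 subunits carry the delayed rectifier current of the soma and proximal dendrites. The Kv2 gene Kcnb2 differed by -0.03 ± 0.20 in susceptible and 0.24 ± 0.24 in resilient mice, and neither value passed.

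Kv3 subunits close fast and allow narrow spikes, above all in fast-spiking interneurons. Kcnc1 (Kv3.1) ran from 1.32 to 1.88 (median 1.64) in susceptible mice, was 2.02, 1.82 and 1.90 in resilient mice, and was 1.69, 1.27, 2.01, 1.58 and 1.65 in naive mice. The resilient mice sat at the upper end of the range, and the highest of all was a resilient mouse. Susceptible minus resilient was -0.29 ± 0.15, the smallest p of the Kcn genes between these groups (adjusted p = 1.00 by limma). The difference from naive mice was -0.01 ± 0.13 in susceptible and 0.27 ± 0.16 in resilient mice, and the value for susceptible mice turned sign in several alternative settings. On the dimmer probes of Kcnc1 the difference from naive mice was 0.40 and 0.18 in susceptible and 0.45 and 0.08 in resilient mice. Susceptible and resilient mice thus lay closer together on these probes than on the brightest. Kcnc4 (Kv3.4), the brightest Kv3 probe, ran from 1.68 to 2.04 (median 1.91) in susceptible mice, was 1.65, 2.00 and 1.77 in resilient mice and 1.80, 1.53, 1.52, 2.03 and 2.15 in naive mice, so that the groups overlapped. Kcnc2 differed by 0.12 ± 0.15 in susceptible and 0.16 ± 0.19 in resilient mice. The 7 markers of inhibitory neurons had a median difference of 0.23 in susceptible mice, with mean levels of 3.25 to 3.56, against 3.12 to 3.28 in naive mice, and 0 of the 7 passed.

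Kv4 subunits carry the A-type current of dendrites, which damps back-propagating spikes. Kcnd2 (Kv4.2) ran from 2.51 to 3.02 (median 2.62) in susceptible mice, was 2.42, 2.47 and 2.50 in resilient mice, and was 2.57, 2.92, 3.14, 2.66 and 2.79 in naive mice. The 3 resilient mice were the lowest of the 14, by a narrow margin over the lowest susceptible mouse. Susceptible minus resilient was 0.22 ± 0.14 (adjusted p = 1.00 by limma), and Kcnd2 was the only tested Kcn gene whose susceptible and resilient values did not overlap, beside 0.305% of all genes in this direction. Resilient minus naive was -0.35 ± 0.14 (adjusted p = 0.188) and susceptible minus naive was -0.13 ± 0.12. Kcnd3 (Kv4.3), the brightest Kv4 probe, ran from 3.71 to 4.04 (median 3.86) in susceptible mice, was 4.08, 3.75 and 3.79 in resilient mice and 3.74, 3.82, 4.14, 3.74 and 3.79 in naive mice. Its groups overlapped almost wholly. Kcnd1 differed from naive mice by -0.04 ± 0.13 in susceptible and -0.01 ± 0.16 in resilient mice.

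Silent Kv subunits form no channel alone and modify Kv2 channels. Of 10 on the array 8 were tested, 0 passed in the fit without slide, and the median difference was 0.21 in susceptible and 0.36 in resilient mice. Kcng1 (Kv6.1) differed by 0.64 ± 0.23 in susceptible (adjusted p = 0.117, or 0.0320 with slide as a block) and 0.78 ± 0.28 in resilient mice (adjusted p = 0.145). Kcng3 (Kv6.3) ran from -2.78 to -1.89 (median -2.43) in susceptible mice, was -1.66, -2.49 and -2.03 in resilient mice, and was -2.37, -2.30, -2.72, -2.49 and -2.80 in naive mice. The highest level was in a resilient mouse and the groups overlapped. Susceptible minus resilient was -0.34 ± 0.20 for Kcng3 (adjusted p = 1.00 by limma). Kcng2, the brightest silent Kv probe, ran from 1.50 to 2.08 (median 1.81) in susceptible mice, was 1.74, 2.39 and 1.51 in resilient mice and 1.84, 1.68, 2.03, 1.92 and 1.90 in naive mice. The naive values fell inside the range of the defeated mice. Kcnv1 (Kv8.1) differed by -0.34 ± 0.14 in susceptible mice. Kcnf1 (Kv5.1) differed by 0.50 ± 0.25 in susceptible (adjusted p = 0.236, or 0.0271 with slide as a block) and 0.55 ± 0.30 in resilient mice (adjusted p = 0.317, or 0.0400 with the block).

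Kv7 subunits carry the M current, a slow brake on firing that muscarinic receptors shut off. Of 5 Kv7 genes 3 were tested and 0 passed in the fit without slide. Kcnq3, a subunit of the M channel, ran from -1.47 to -1.14 (median -1.32) in susceptible mice, was -1.35, -1.06 and -1.37 in resilient mice, and was -1.82, -2.01, -2.73, -1.59 and -1.38 in naive mice. The resilient mice all lay above the naive mice, and 1 naive mouse, on slide 3, overlapped the susceptible mice. Its difference was 0.59 ± 0.19 in susceptible (adjusted p = 0.0881, or 0.0386 with slide as a block) and 0.64 ± 0.22 in resilient mice (adjusted p = 0.138). Kcnq5, which also contributes to the M current, differed by 0.02 ± 0.11 in susceptible and -0.01 ± 0.13 in resilient mice. Mean levels of the 6 general neuronal markers were 5.24 to 5.72 in susceptible, 5.53 to 5.68 in resilient and 5.26 to 5.52 in naive mice. Those of the 5 excitatory cortical markers were 2.05 to 2.74, 2.33 to 2.48 and 2.40 to 2.83 in the same order. The part of either list in the Kv results was not tested.

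Of the ether-a-go-go family (EAG, ERG and ELK), slow-gating relatives of the Kv channels, 6 of 8 genes were tested and 0 passed in the fit without slide, with a median difference of -0.02 in susceptible and 0.06 in resilient mice. Kcnh1, an EAG subunit, differed by 0.28 ± 0.39 in resilient mice (adjusted p = 0.724), and with slide as a block by 0.76 ± 0.17 (adjusted p = 0.0369). Kcnh3, an ELK subunit of forebrain neurons and the brightest probe of the class, ran from 5.17 to 5.64 (median 5.36) in susceptible mice, was 5.29, 5.21 and 5.59 in resilient mice and 5.31, 5.41, 6.03, 5.56 and 5.60 in naive mice. The defeated mice overlapped the naive mice, and the difference was -0.19 ± 0.14 in susceptible and -0.22 ± 0.16 in resilient mice. Of 8 genes in the class of calcium- and sodium-activated channels 6 were tested and 0 passed, with a median of 0.08 and 0.16. Kcnu1, counted in this class, is not itself opened by calcium or sodium. It differed by -0.05 in susceptible and -0.08 in resilient mice. Kcnma1, the pore of the BK channel that ends spikes after calcium entry, ran from 2.95 to 3.42 (median 3.29) in susceptible mice, was 3.40, 3.48 and 3.15 in resilient mice and 3.45, 3.32, 3.83, 3.14 and 3.29 in naive mice. The groups overlapped, and Kcnma1 differed by -0.17 ± 0.13 in susceptible mice. Kcnn2, an SK subunit behind the afterhyperpolarisation, differed by 0.32 ± 0.12 in susceptible mice (adjusted p = 0.129), and the sodium-activated Kcnt1 and Kcnt2 by 0.18 ± 0.09 and 0.29 ± 0.17.

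Of the Kir genes Kcnj10 passed in the fit without slide, and Kcnj3, Kcnj9, Kcnj15 and Kcnj16 also passed with slide as a block. Kcnj10 encodes Kir4.1, the main inward rectifier of astrocytes, through which they take up potassium. Its level ran from 3.72 to 4.23 (median 4.01) in susceptible mice. It was 3.72, 4.13 and 4.02 in resilient mice and 4.25, 4.50, 4.70, 4.68 and 4.68 in naive mice. All 9 defeated mice lay below all 5 naive mice. The signal in susceptible mice was 0.665 of the naive signal, a difference of -0.59 ± 0.13 (adjusted p = 0.0328, or 0.00772 with slide as a block), and in resilient mice the difference was -0.61 ± 0.15 (adjusted p = 0.0862). Within slides 1, 2 and 3 susceptible minus naive was -0.51, -0.59 and -0.51. Leaving out naive mouse 2, 3 or 4 ended the call of Kcnj10 (adjusted p = 0.0676, 0.0767 and 0.0560), as did leaving out susceptible mouse 1, 2, 4 or 5 (0.0734, 0.0776, 0.0682 and 0.0545), while the difference ranged from -0.67 to -0.54.

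Kcnj16 encodes Kir5.1, which joins Kir4.1 in astrocyte channels. It ran from 2.10 to 2.76 (median 2.37) in susceptible mice, was 2.24, 2.17 and 2.35 in resilient mice, and was 2.49, 2.71, 3.17, 2.98 and 2.79 in naive mice. The resilient mice lay below every naive mouse, and 2 susceptible mice, both on slide 3, lay among the naive ones. The difference of Kcnj16 was -0.44 ± 0.14 in susceptible (adjusted p = 0.0883, or 0.0345 with slide as a block) and -0.58 ± 0.17 in resilient mice (adjusted p = 0.103). Of the 8 astrocyte markers, 7 lay below 0 in susceptible against naive mice and 1, S100b, was called lower (-0.64 ± 0.16, adjusted p = 0.0490). Aqp4 and Slc1a2, the astrocyte water channel and main glutamate transporter, differed by -0.40 ± 0.14 and -0.06 ± 0.10. The mean level of the 8 markers ran from 3.12 to 3.70 in susceptible, 3.03 to 3.36 in resilient and 3.38 to 3.75 in naive mice, and all 8 passed the filter. Their part in the Kcnj10 and Kcnj16 values was not tested, and in bulk tissue fewer cells of a type and less RNA per cell cannot be told apart.

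**Figure D3:**
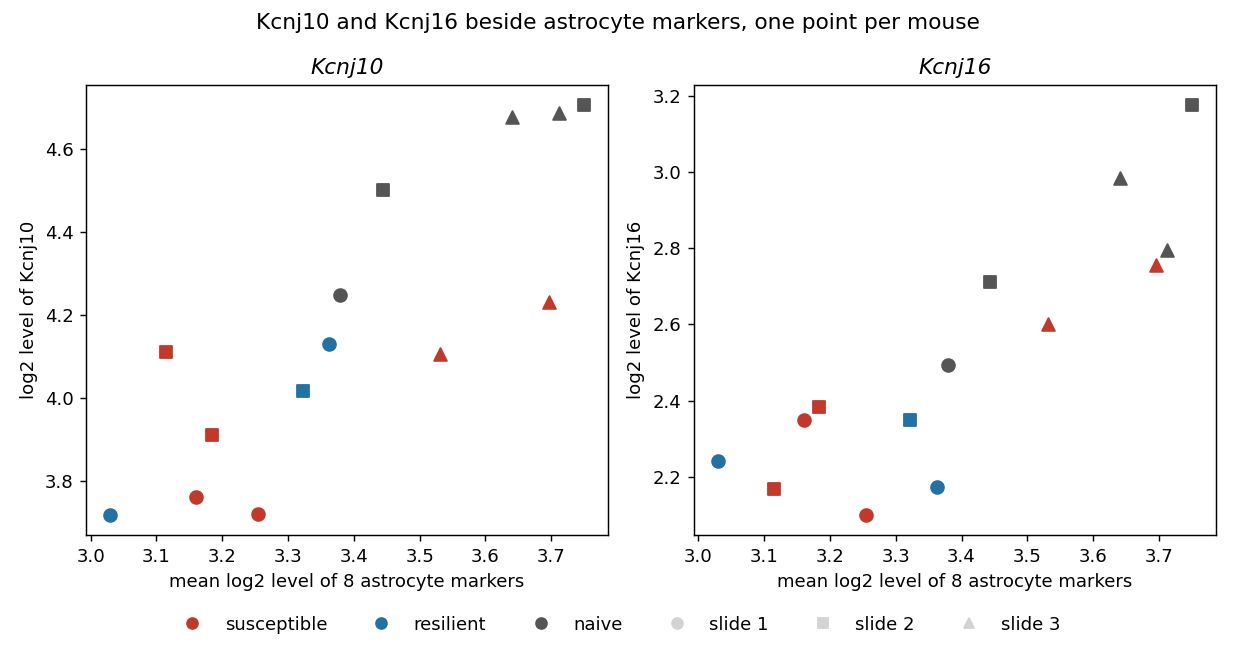
Level of Kcnj10 and of Kcnj16 (vertical axes, log2 signal minus the array's 75th percentile) against the mean level of 8 astrocyte markers on the same array (horizontal axes), 1 point per mouse. The susceptible mice span 3.12 to 3.70 on the marker axis and the naive mice 3.38 to 3.75.

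Kcnj9 and Kcnj3 encode GIRK subunits, which G-protein-coupled receptors open to silence neurons. Kcnj9 (GIRK3) ran from 2.11 to 2.61 (median 2.19) in susceptible mice, was 2.30, 2.21 and 2.56 in resilient mice, and was 1.99, 1.83, 1.61, 1.98 and 2.02 in naive mice. Every defeated mouse lay above every naive mouse. With Kcna3 it made 2 Kcn genes whose susceptible values were all higher than the naive ones (2.49% of all genes), and Kcnj10 was the 1 that was wholly lower (1.64% of all genes). The difference of Kcnj9 was 0.37 ± 0.11 in susceptible (adjusted p = 0.0829, or 0.0442 with slide as a block) and 0.47 ± 0.14 in resilient mice (adjusted p = 0.103), so that it passed with the block and not without it. Kcnj3 (GIRK1) differed by 0.46 ± 0.15 in susceptible (adjusted p = 0.0987, or 0.0352 with slide as a block) and 0.53 ± 0.19 in resilient mice (adjusted p = 0.140). Kcnj6 (GIRK2) differed by 0.10 ± 0.17 in susceptible and 0.15 ± 0.20 in resilient mice.

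Kcnj15 (Kir4.2), known mainly from epithelia, ran from -3.37 to -2.17 (median -2.64) in susceptible mice, was -2.71, -2.63 and -2.81 in resilient mice, and was -1.69, -1.49, -1.41, -2.48 and -2.54 in naive mice. The naive mice fell apart by slide, with both naive mice of slide 3 near the resilient mice, which were on slides 1 and 2. Within slides 1, 2 and 3 Kcnj15 differed by -0.70, -0.97 and -0.79 in susceptible against naive mice. Its difference was -0.78 ± 0.26 in susceptible (adjusted p = 0.0987, or 0.00624 with slide as a block) and -0.79 ± 0.31 in resilient mice (adjusted p = 0.179, or 0.0279 with the block). Kcnj4 (Kir2.3), the brightest Kir probe, ran from 4.62 to 5.03 (median 4.85) in susceptible mice, was 4.82, 4.72 and 4.98 in resilient mice and 5.10, 5.04, 5.23, 4.60 and 4.35 in naive mice. The groups overlapped, and Kcnj4 differed by -0.04 ± 0.15 in susceptible mice, or 0.05 after quantile normalization. Kcnj12 (Kir2.2) differed by 0.33 ± 0.12 (adjusted p = 0.114) and Kcnj11, the pore of the ATP-sensitive channel of neurons, by 0.20 ± 0.17.

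K2P subunits set the resting leak. Of 14 K2P genes 11 were tested and 0 passed in the fit without slide, with a median difference of 0.12 in susceptible and 0.07 in resilient mice. Kcnk1 (TWIK1), the brightest K2P probe, ran from 1.74 to 2.19 (median 1.94) in susceptible mice, was 1.81, 2.08 and 1.72 in resilient mice, and was 1.54, 1.25, 1.35, 1.67 and 1.95 in naive mice. Of the naive mice, 4 lay below every susceptible mouse and 1, on slide 3, overlapped. Its difference was 0.40 ± 0.13 in susceptible (adjusted p = 0.0991, or 0.0174 with slide as a block) and 0.32 ± 0.16 in resilient mice (adjusted p = 0.283). Kcnk6 (TWIK2) differed by 0.53 ± 0.24 in susceptible (adjusted p = 0.189, or 0.0188 with slide as a block) and 0.48 ± 0.28 in resilient mice (adjusted p = 0.362, or 0.0397 with the block). Kcnk13 (THIK1), known from microglia, differed by -0.34 ± 0.15 in susceptible mice. Kcnk2 (TREK1) had the widest spread among naive mice of any tested Kcn gene, from -4.34 to -1.51, and differed by 0.65 ± 0.41.

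Of 17 auxiliary subunit genes 11 were tested. Kcne1l, also called Kcne5, encodes a single-pass subunit known to damp the current of Kcnq1 channels. Its level ran from -0.05 to 0.59 (median 0.08) in susceptible mice. It was -0.30, 0.07 and 0.07 in resilient mice and 0.50, 0.70, 0.99, 0.65 and 0.74 in naive mice. The resilient mice lay below every naive mouse, and 1 susceptible mouse, on slide 3, exceeded the lowest naive one. The difference was -0.55 ± 0.13 in susceptible mice (adjusted p = 0.0430, or 0.0168 with slide as a block), a signal 0.681 of the naive one, and -0.77 ± 0.16 in resilient mice (adjusted p = 0.0653, or 0.0420 with the block). Within slides 1, 2 and 3 susceptible minus naive was -0.48, -0.83 and -0.24. The call of Kcne1l held without naive mouse 1 (adjusted p = 0.0487) or susceptible mouse 6 (0.0166) and ended without any other single mouse, resilient mice included, with adjusted p between 0.0518 and 0.0984. A dimmer probe of Kcne1l differed by -0.12 ± 0.10 in susceptible and -0.26 ± 0.13 in resilient mice (adjusted p = 0.548 and 0.285 in a limma fit over all probes, where the brighter probe had 0.0567 and 0.0868), and with the mean of its probes Kcne1l did not pass (adjusted p = 0.0548).

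Kcnab1, a cytoplasmic Kv beta subunit that speeds the inactivation of Kv1 channels, ran from 2.40 to 2.88 (median 2.50) in susceptible mice, was 2.64, 2.49 and 2.57 in resilient mice, and was 2.22, 2.26, 2.17, 2.36 and 2.40 in naive mice. The resilient mice lay above all naive mice, and the lowest susceptible mouse lay level with the highest naive one. Its difference was 0.26 ± 0.10 in susceptible (adjusted p = 0.121, or 0.0315 with slide as a block) and 0.28 ± 0.12 in resilient mice (adjusted p = 0.189). The other beta subunits Kcnab2 and Kcnab3 differed by 0.28 ± 0.16 and 0.41 ± 0.15 in susceptible mice. Kcnmb4, the BK beta subunit of neurons and the brightest auxiliary probe, ran from 4.96 to 5.54 (median 5.30) in susceptible mice, was 5.06, 5.30 and 5.18 in resilient mice and 4.92, 5.51, 5.58, 5.82 and 5.64 in naive mice. A naive mouse lay below all others and the rest lay in or above the upper part of the defeated range. Its difference was -0.21 ± 0.15 in susceptible and -0.31 ± 0.18 in resilient mice. The calcium-binding partners of Kv4 channels, Kcnip1 to Kcnip4, differed by 0.49 ± 0.26, 0.21 ± 0.43, -0.04 ± 0.11 and 0.11 ± 0.12 in susceptible mice. Of these, Kcnip1 had an adjusted p of 0.259, and with slide as a block it passed at 0.51 ± 0.15 (adjusted p = 0.0378).

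Kcnq1ot1 is the imprinted non-coding RNA that runs antisense through Kcnq1, and it is no channel subunit. It ran from -3.78 to -1.45 (median -2.75) in susceptible mice, was -1.11, -2.74 and -1.49 in resilient mice, and was -1.60, -1.44, -2.02, -2.67 and -2.30 in naive mice. The groups overlapped, and susceptible minus resilient was -0.81 ± 0.49 (adjusted p = 1.00 by limma). Kcnd3os, a transcript named for the strand opposite Kcnd3, ran from -2.51 to -1.76 (median -2.28) in susceptible mice, was -2.54, -2.52 and -2.19 in resilient mice and -2.59, -2.04, -2.05, -1.86 and -1.74 in naive mice. It too overlapped between all groups, and susceptible minus resilient was 0.21 ± 0.19.

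Susceptible and resilient mice were both set against the same 5 naive mice, so their differences share those values. For the 3 genes that passed in susceptible mice the resilient differences were 0.49 (Kcna3), -0.61 (Kcnj10) and -0.77 (Kcne1l), and susceptible minus resilient was 0.14 ± 0.16, 0.02 ± 0.15 and 0.22 ± 0.15. Resilient and naive values did not overlap for 8 Kcn genes that were higher (11.1% of those tested, beside 8.31% of all genes) and 5 that were lower (6.94%, beside 6.41% of all genes). Among the higher ones were Kcna2, Kcna3, Kcnab1, Kcnj3, Kcnj9, Kcnq3 and Kcnrg, and the lower ones were Kcnd2, Kcne1l, Kcnj10, Kcnj15 and Kcnj16. Over the 72 genes susceptible minus resilient was above 0 for 36 (52.8% of all genes) and ranged from -0.81 to 0.25, with a median of 0.00.

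**Figure D4:**
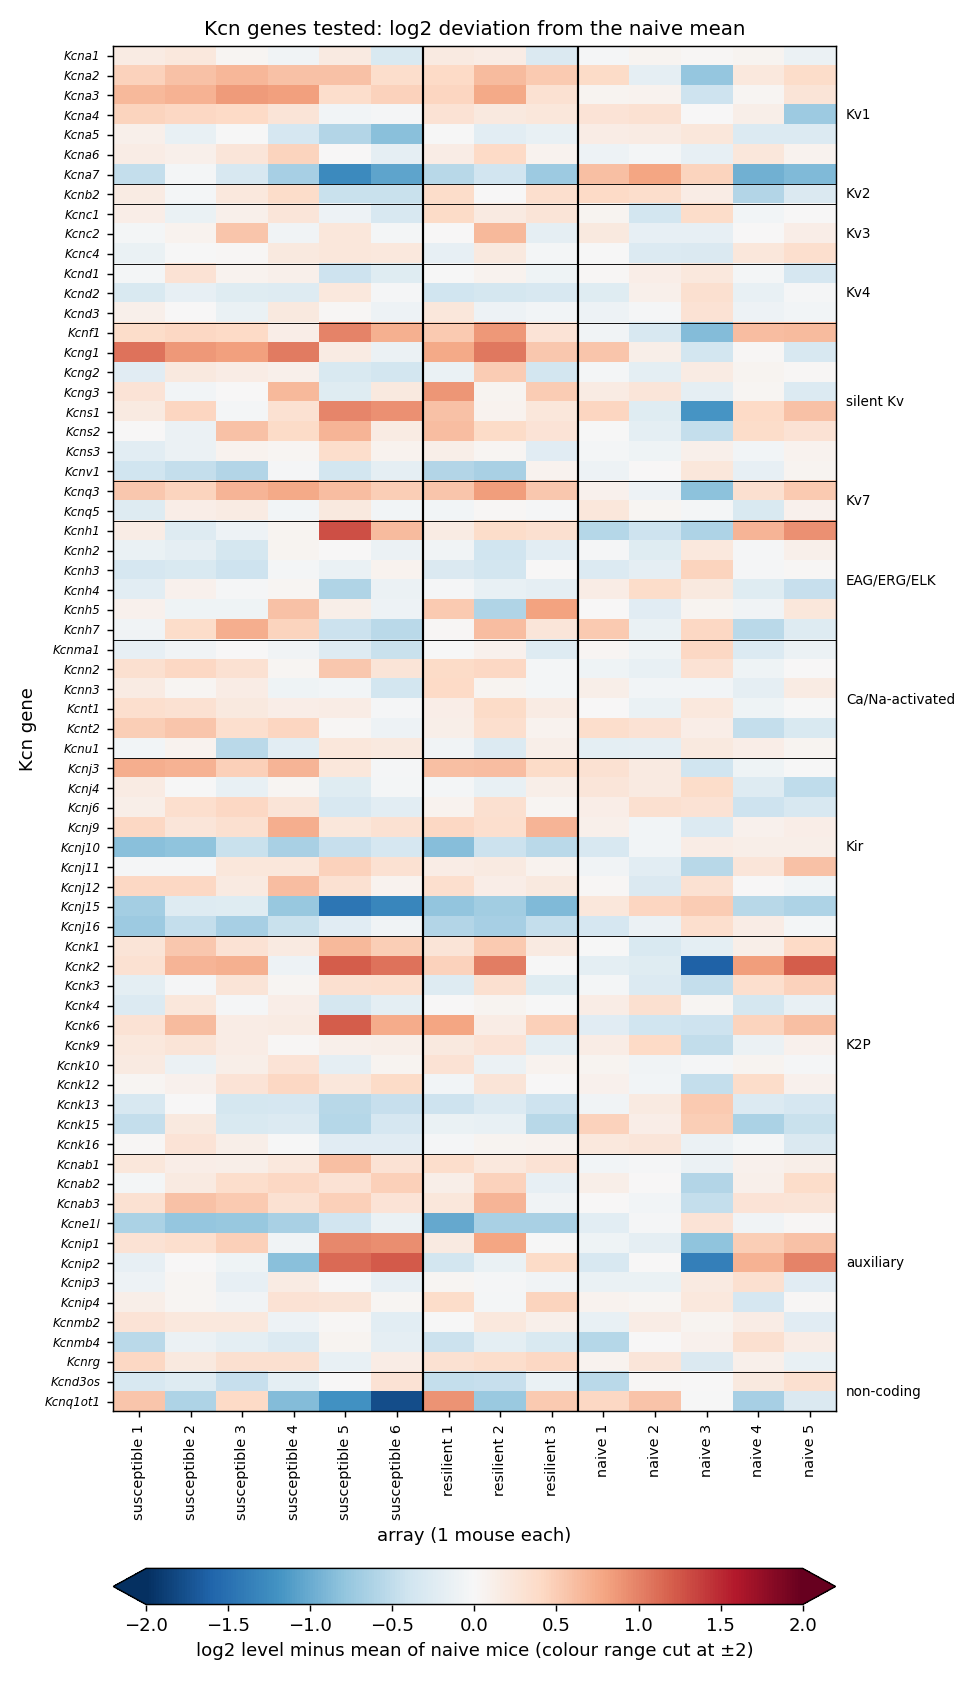
Deviation of 69 of the 72 tested Kcn genes (rows, by class) from the mean of the naive mice on the log2 scale, by array (columns), with red for higher and blue for lower. Kcna3 is red and Kcnj10 and Kcne1l are blue in the 9 defeated mice, and Kcna7, Kcnj15, Kcnk2 and Kcnip2 differ among the naive mice themselves.

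Mice of a group were spread over the slides, and the fit was repeated with slide as a block. Among naive mice the median SD of the 72 Kcn genes was 0.27, against 0.25 over all genes, and it was highest for Kcnk2. With slide as a block in the limma fit, 18 Kcn genes passed in susceptible against naive mice, 12 higher and 6 lower, beside 15.3% of all genes tested (8.85% higher and 6.49% lower). Among the 12 that rose were Kcna2, Kcna3, Kcnab1, Kcnf1, Kcng1, Kcnip1, Kcnj3, Kcnj9, Kcnk1, Kcnk6 and Kcnq3, and the 6 that fell were Kcna5, Kcna7, Kcne1l, Kcnj10, Kcnj15 and Kcnj16. The differences in that fit ranged from 0.28 ± 0.08 (Kcnab1) to 0.62 ± 0.14 (Kcna3) among the higher genes and from -0.84 ± 0.11 (Kcnj15) to -0.35 ± 0.09 (Kcna5) among the lower ones. Each of the 18 had the same sign within all 3 slides. The genes were called by a fit on these same values, so the shared sign is no separate support. For Kcnq3 the value within slide 3 was 0.13, beside 0.40 and 1.18 within slides 1 and 2. Kcnk1 (0.41, 0.49 and 0.31) and Kcnj15 (-0.70, -0.97 and -0.79) were more even across slides 1, 2 and 3.

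**Figure D5:**
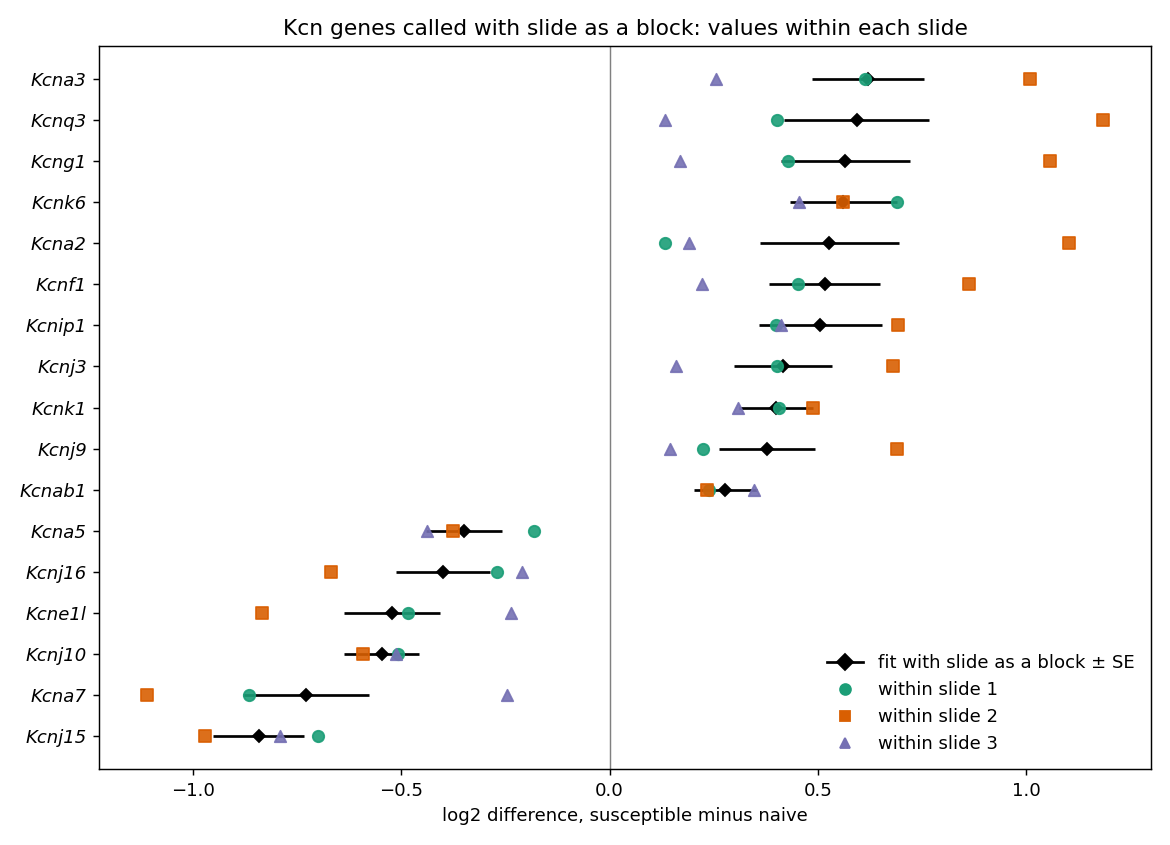
Of the 18 Kcn genes called with slide as a block, 17 are drawn, with the log2 difference of susceptible minus naive mice from that fit (black diamonds, bars ± SE) and within each slide (coloured points). Every within-slide value has the sign of its fit, which rests on the same arrays. Slide 2 holds high values such as 1.01 for Kcna3 and 1.18 for Kcnq3.

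Resilient mice, present on slides 1 and 2 alone, gave 6 calls against naive mice with slide as a block, beside 3.53% of all genes. Kcnf1 (0.76 ± 0.17), Kcnh1 (0.76 ± 0.17) and Kcnk6 (0.73 ± 0.17) were higher, and Kcna7 (-1.05 ± 0.20), Kcne1l (-0.63 ± 0.15) and Kcnj15 (-1.16 ± 0.14) were lower. With slide as a block 0 Kcn genes and 0% of all genes passed between susceptible and resilient mice. Array brightness moved with the groups and with the slide. The 75th percentile of the log2 signal ran from 7.69 to 9.24 on susceptible, 7.96 to 8.17 on resilient and 7.25 to 8.64 on naive arrays. On slides 1 and 2 it was 7.25 to 7.36 on naive and 7.69 to 8.17 on defeated arrays. On slide 3 brightness was 8.54 and 8.64 on naive and 8.63 and 9.24 on susceptible arrays. Its part in these counts was not tested beyond a fit with brightness as a covariate, in which 10 Kcn genes passed in susceptible mice (10.1% of all genes) and 6 in resilient mice (7.67% of all genes), Kcna3, Kcnj10 and Kcne1l among the 10.

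For several genes a dimmer probe gave another value than the one used, and the probes can stand for different transcripts. In susceptible against naive mice Kcnq5 differed by 0.02 ± 0.11 on the brighter and 0.98 ± 0.24 on the dimmer probe (adjusted p = 0.0549 in a limma fit over all probes), Kcna6 by 0.13 and 0.82, Kcnd3 by 0.02 and 0.65 and Kcnip4 by 0.11 and 0.61. The probes of Kcnma1 gave -0.17, 0.38 and 0.12, and those of Kcna5 gave -0.31 and 0.59, with opposite signs. Both probes of Kcnj3 (0.46 and 0.53), Kcnf1 (0.50 and 0.36) and Kcna7 (-0.64 and -0.86) had the same sign.

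The other 25 Kcn genes were not tested. Among them Kcnj13, a Kir subunit of choroid plexus epithelium, was well above background in 5 susceptible, 2 resilient and 4 naive mice, and Kcnj2 (Kir2.1) in 5, 2 and 2 mice of these groups. Kcnj8, the pore of the ATP-sensitive channel of pericytes and smooth muscle, was above background in 4 susceptible, 2 resilient and 2 naive mice. Its signal ran from -3.80 to -2.03 (median -3.60) in susceptible mice, was -3.93, -5.05 and -3.46 in resilient mice and -4.00, -3.88, -3.77, -3.71 and -3.40 in naive mice, so that the groups overlapped and no fold is given. Kcne3 and Kcnn4 were above background on 5 arrays, Kcne4 and Kcnq1 on 3, and Kcna10, Kcne1 and Kcng4 on 2. Kcne2, Kcnh6, Kcnh8, Kcnj5, Kcnk5, Kcnmb1 and Kcnmb3 were above background on 1 array, and Kcnj1, Kcnj14, Kcnk18, Kcnk7, Kcnmb4os1, Kcnn1 and Kcnv2 on 0.

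Of 40 genes on the array whose proteins partner, anchor or regulate potassium channels, 37 were tested and 2 passed in susceptible against naive mice, both higher, beside 2.6% of all genes. Lgi1, a secreted protein tied to Kv1 channels at axon terminals, was higher by 0.68 ± 0.14 (adjusted p = 0.0312) in susceptible mice and differed by 0.59 ± 0.17 in resilient mice (adjusted p = 0.101). Slc24a4, a potassium-dependent sodium-calcium exchanger, was higher by 0.99 ± 0.16 in susceptible (adjusted p = 0.0175) and by 1.16 ± 0.19 in resilient mice (adjusted p = 0.0369), the 1 partner gene to pass there. Against the same naive mice 28 of the 37 lay above 0 in susceptible and 28 in resilient mice, beside 53.2% and 53.1% of all genes. The median was 0.22 in susceptible and 0.21 in resilient mice, against 0.02 over all genes. For susceptible minus resilient 15 of the 37 lay above 0, beside 52.8% of all genes. The 7 tested Kv1 partners had a median of 0.22 in susceptible mice and the 4 tested HCN pacemaker channel genes one of 0.43, with 0 of the HCN genes past the threshold. Dpp6, the Kv4 partner that speeds the A-type current, differed by 0.43 ± 0.12 in susceptible mice (adjusted p = 0.0682), and Slc12a2, a chloride importer, by -0.38 ± 0.12 (adjusted p = 0.0842).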

How the data were processed

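Gene expression was measured on arrays of mPFC RNA from 14 mice, which the labels assign to groups. Per the file headers, the scanner tables deposited by the authors are output of Agilent Feature Extraction 11.0.1.1. Their spot intensities are linear and already background-subtracted by that software, with its flags for signal well above background. The authors also deposited processed log2 values, which equal log2 of these intensities minus a constant per array.

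Spots flagged as outliers and controls were left out, spots of a probe averaged, and each array's 75th percentile subtracted on the log2 scale. Names came from transcript accessions matched to RefSeq (GRCm38.p6), which named 27509 of 55681 probes; promoters came from the same build, whereas the headers name an older one. The brightest probe stood for a gene, and 5 genes without a value on an array because of an outlier spot were left out, which gave 14437.

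The 3 groups entered 1 limma fit without covariates (lmFit and eBayes, limma 3.58.1, R 4.3.3) and Benjamini-Hochberg adjustment over the genes tested. The code was tested on simulated data. The members, lists and tests were chosen with earlier results of these data known. Levels are given for genes past the threshold, the 3 smallest p per direction with fewer than 5 calls and the brightest probe of each class. They are also given for genes fixed by name, among them Kcnq3, Kcnc1, Kcnd2, Kcnj10, Kcnj8 and Kcnab1. These levels are single values in resilient and naive mice and a range with the median in susceptible mice. Other Kcn genes and partners given with values were chosen after these were seen. Partner genes were named where past the threshold. Some Kcn genes are in the counts but not reported here by name. Alternatives were other normalizations, background correction (normexp on median intensities, offset 50), filters, thresholds and probe rules, the authors' table, slide, scan day, replicate number or array brightness in the fit, and leaving out each mouse.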

Additional observations from a re-analysis of the deposited data

Results flagged for a closer look

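The values of 3 mice stood far from the rest of their group, by a test on the gap to the nearest mouse that flags about 1 in 20 groups by chance, over 48 groups of susceptible or naive mice checked. Kcnab1 was 2.88 in susceptible mouse 5, and the nearest susceptible mouse was at 2.58. Kcnd3 was 4.14 in naive mouse 3, and the nearest naive mouse was at 3.82. Kcnj8, which was not tested, was -2.03 in susceptible mouse 4, and the nearest susceptible mouse was at -3.30.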

How the results depend on the processing

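Of the Kcn genes, 3 passed in susceptible against naive mice (2.6% of all genes) and 0 in resilient against naive mice, and these counts changed with the fit. In susceptible and resilient mice 18 and 6 passed with slide as a block (15.3% and 3.53% of all genes), 20 and 11 with scan day as a block (17.3% and 10.1% of all genes), 10 and 6 with array brightness as a covariate (10.1% and 7.67%), and 5 and 1 after normexp correction with quantile normalization (5.47% and 1.12%). With an adjusted p under 0.1 in place of 0.05, 11 and 2 passed (9.86% and 2.36%). With the moderated variance trended and robust, 1 passed in resilient mice (0.436%). In susceptible mice 0 passed with no filter on dim probes (0.168%) and 0 when only the groups compared were fitted (0.457%). With slides 1 and 2 alone, a setting chosen after seeing the data, 16 and 13 passed (13.5% and 11.3%). Leaving out 1 mouse at a time gave 0 to 6 genes in susceptible mice (0 without naive mouse 2, 3 or 4 or susceptible mouse 1, 2 or 4, beside 0.187% to 1.03% of all genes, 1 without susceptible mouse 3 or 5, beside 0.956% and 0.429%, 5 without naive mouse 5, beside 4.02%, 6 without susceptible mouse 6, beside 6.02%) and 0 to 1 in resilient mice (Kcne1l, adjusted p = 0.0348 by limma, without susceptible mouse 6, beside 0.526%). Between susceptible and resilient mice 0 passed in every setting, so nothing is said of its stability. With a replicate block 9 and 6 passed (11.8% and 5.02% of all genes). The replicate numbers share only a number: the correlation of same-numbered mice over 11 pairs ran from -0.382 to 0.707, and a change of calls under this block says nothing about the effect. Kcna3 and Kcnj10 were lost with no filter (adjusted p = 0.0763 for both, limma) and in the fit of the groups compared (0.0531 for both), and Kcne1l in these (0.0917 and 0.0656), with the authors' table (0.0515), with a filter on 3 arrays (0.0511) and with the mean of its probes (0.0548). The genes below, none of which passed, turned sign, and the cause was not tested. In susceptible minus naive mice, Kcnc1 gave 0.19 with the mean of its probes, 0.034 with array brightness, 0.049 with the replicate block and 0.070 with slides 1 and 2. Kcnc4 gave -0.0068 with array brightness, Kcnd3 gave -0.012 with slides 1 and 2, Kcng2 gave 0.16 with the mean of its probes and 0.082 with slides 1 and 2, and Kcnma1 gave 0.11 with the mean of its probes. Kcnj4 gave 0.054 after quantile normalization, 0.035 after normexp and 0.092 with array brightness. In resilient minus naive mice, Kcnc4 gave -0.028 after normexp and -0.049 with array brightness, and Kcnj4 gave 0.11 after quantile normalization, 0.071 after normexp and 0.045 with array brightness. Kcnd3 gave -0.0098 with slide, -0.016 with scan day and -0.028 with slides 1 and 2, and Kcng2 gave -0.10 with slide, -0.067 with scan day and -0.012 with the replicate block. Kcnma1 gave 0.21 with the mean of its probes, and Kcnq1ot1 gave -0.22 with slide, -0.21 with scan day, -0.17 with the replicate block and -0.094 with slides 1 and 2. In susceptible minus resilient mice Kcnd3os gave -0.022 with the replicate block. With 1 mouse left out, susceptible minus naive ranged from -0.10 to 0.079 for Kcnc1, -0.019 to 0.089 for Kcnd3 and -0.17 to 0.054 for Kcnj4. Resilient minus naive then ranged from -0.097 to 0.087 for Kcnc4, -0.076 to 0.10 for Kcnd3, -0.25 to 0.19 for Kcng2, -0.15 to 0.067 for Kcnj4, -0.13 to 0.043 for Kcnma1 and -0.11 to 0.71 for Kcnq1ot1. The 25 Kcn genes near background have no test here.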
